A study of Mus musculus with 860 samples.

Results

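JAG1-high and JAG1-low cells were set apart among single GFI1+ IAHC cells, the sorted cells of the intra-aortic hematopoietic clusters (IAHC) that carry the GFI1 reporter. The cells came from the aorta-gonad-mesonephros (AGM) region of untreated embryos at E11.5 (embryonic day) of Gfi1:tomato reporter mice on a CD1 background. They were gated as CD31+ cKIT+ GFI1+, so every cell described here passed the same gate on these markers. From the 240 E11.5 GFI1+ IAHC cells that the authors kept, 93 JAG1-high and 94 JAG1-low cells were chosen by their measured JAG1 signal, out of 775 kept cells and 860 cells in the whole series. They were the cells of the batches GL53 and GL78 that lay in the authors' Louvain clusters 0 to 5, and each of these had a JAG1 value. Left out were 30 cells of batch GL58 and 23 cells in the other clusters. A cell was JAG1-high when its JAG1 fluorescence, recorded by the sorter, was above the median of its batch, and JAG1-low when it was at or below that median. This gave 55 JAG1-high and 56 JAG1-low cells in GL53, and 38 of each in GL78. The embryos were pooled and no animal is named for a cell, so each group counts as 1 summed sample per batch and no test was made. The results are therefore values seen in both batches and not tested differences, and intervals cover counting error only.

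JAG1 is a transmembrane Notch ligand. It binds Notch receptors on a neighboring cell, which are then cut by ADAM proteases and by gamma-secretase, and the freed intracellular part joins RBPJ in the nucleus to switch on targets such as Hes and Hey genes. Ligands on the same cell can also hold the receptor back, and fringe enzymes change which ligand a receptor answers to. In the AGM, Jag1 is known to be needed for the formation of hematopoietic cells, which arise from hemogenic endothelium, bud into clusters inside the aorta and gain the surface protein CD45 as they mature.

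The JAG1 values describe how the cells were chosen and are not a result. In GL53 the JAG1-high cells had JAG1 signals of 10582 to 25678 with a median of 13238 (arbitrary fluorescence units), and the JAG1-low cells 1897 to 10497 with a median of 7491. In GL78 the JAG1-high cells spanned 11825 to 34984 with a median of 15398, and the JAG1-low cells 1413 to 11779 with a median of 7823. The split cut through a continuous range: the JAG1-high cells nearest to it lay at 10582 and 10651 in GL53, and the JAG1-low cells nearest to it at 10497 and 10359. In GL78 they lay at 11825 and 12016 on the JAG1-high side and at 11779 and 11668 on the JAG1-low side. "High" and "low" are thus ranges of one signal, not types of cell.

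The summed libraries were of like depth. JAG1-high cells gave 37604019 counts in GL53 and 31018903 in GL78, and JAG1-low cells 37462544 and 27109369. The median cell held 627568 and 804293 counts in JAG1-high cells, against 669864 and 677798 in JAG1-low cells. With every cell thinned to 50000 counts, a median of 5924 genes was detected in JAG1-high cells of GL53 and 5633.5 in those of GL78, against 5326.5 and 5062.5 in JAG1-low cells (7612 and 7542 against 6837.5 and 6657.5 unthinned). Mitochondrial counts were a median 2.56% and 1.36% in JAG1-high cells, against 2.74% and 1.53% in JAG1-low cells.

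Cells with more JAG1 also carried more CD31, NOTCH1 and GFI1 reporter signal in both batches. CD31 (PECAM-1), the endothelial adhesion protein used in the gate, followed JAG1 most closely. Its median was 70769 in JAG1-high cells of GL53, against 32251 in JAG1-low cells, and 51597 against 23485 in GL78. Of the JAG1-high cells, 52 of 55 in GL53 and 33 of 38 in GL78 were above the CD31 median of their batch, against 3 of 56 and 5 of 38 JAG1-low cells. Across cells Spearman's rank correlation of CD31 with JAG1 was 0.96 in GL53 (55 JAG1-high and 56 JAG1-low cells) and 0.94 in GL78 (38 of each), so a split by JAG1 was nearly a split by CD31. The points are cells of the same sorted population, may share the instrument and the staining within a batch, and are not replicates. The same correlation was 0.59 to 0.95 in the other sorted populations of these batches. How the JAG1 and CD31 channels were compensated is not given in the sources used here, and the part of CD31 fluorescence in the JAG1 signal was not tested.

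**Figure D1:**
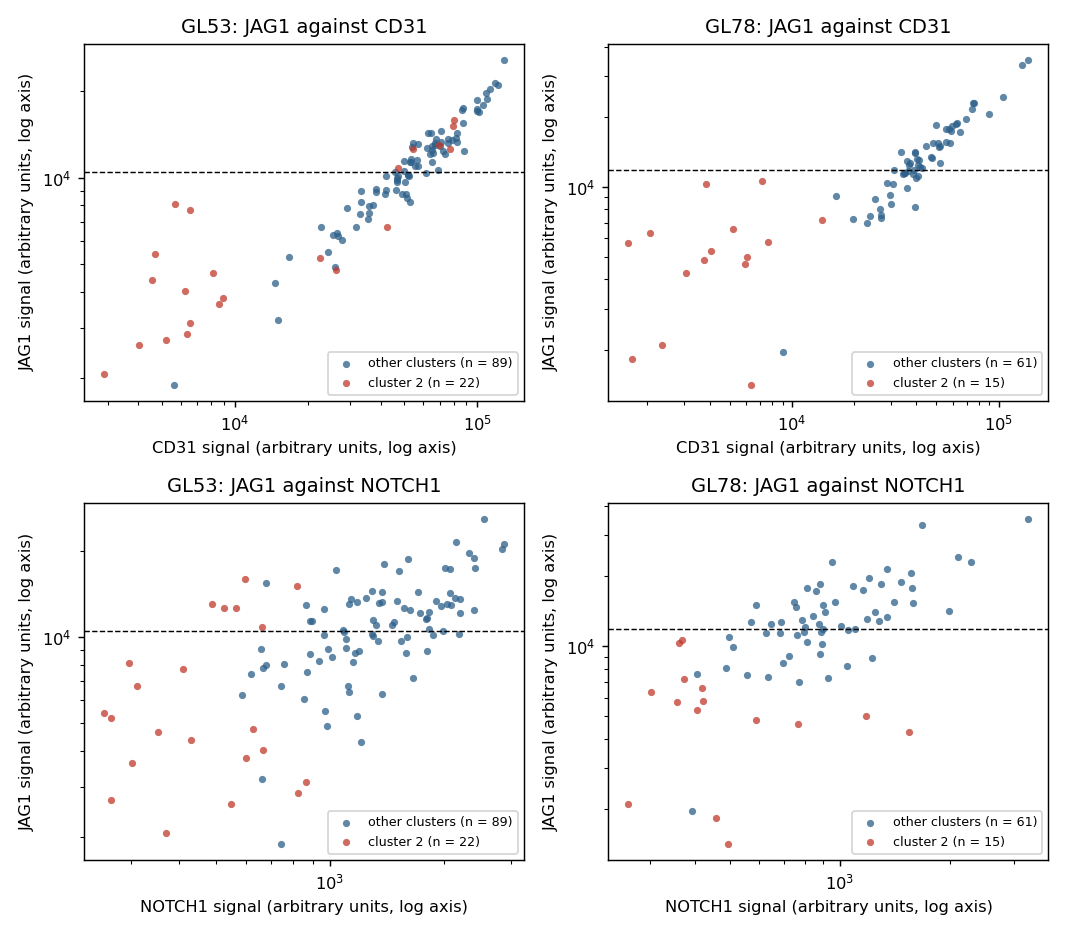
JAG1 signal of each cell (vertical log axis, arbitrary units) against its CD31 signal (upper panels) and its NOTCH1 signal (lower panels), for GL53 on the left and GL78 on the right. Each point is a cell, red for cluster 2 and blue for the other clusters, and the dashed line is the JAG1 median of the batch. JAG1 and CD31 went together over all cells (rank correlation 0.96 and 0.94), cluster 2 cells had less CD31 for their JAG1 signal (median JAG1 over CD31 of 0.44 and 1.27, against 0.20 and 0.30 in clusters 0, 1, 3 and 5), and NOTCH1 followed JAG1 more loosely (rank correlation 0.63 and 0.68).

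NOTCH1, the receptor most studied in this tissue, was higher on JAG1-high cells. In GL53 its signal in JAG1-high cells was 488 at the lowest, 1519 at the median and 2874 at the highest, against 254.7, 910.3 and 2185 in JAG1-low cells. In GL78 the same values were 569.5, 1092 and 3289 in JAG1-high cells, against 262.5, 629.5 and 1547 in JAG1-low cells. The groups overlapped, since 46 JAG1-low cells of GL53 and 21 of GL78 were above the lowest JAG1-high cell. Of the JAG1-high cells 72.7% in GL53 (exact binomial interval 59.04 to 83.86%) and 73.7% in GL78 (56.9 to 86.6%) were above the NOTCH1 median of their batch, against 26.8% (15.8 to 40.3%) and 26.3% (13.4 to 43.1%) of JAG1-low cells. The mean difference was 46.7 percentage points. It was 47.2 points in clusters 0, 1, 3 and 5, where cluster 2 took no part. Splitting cells by the JAG1 signal left after a fit on CD31 gave 28.8 points. Cluster 2 alone, split by its own median, had the opposite sign, at -34.9 points. These last 2 alternatives were added after seeing the data. The part of CD31 fluorescence in the NOTCH1 signal was not tested.

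The GFI1 reporter signal also followed JAG1. The part of JAG1 fluorescence in the GFI1 signal was not tested. Its median was 1095 in JAG1-high cells against 555.3 in JAG1-low cells of GL53, and 796.5 against 497.5 in GL78. Of the JAG1-high cells 44 of 55 and 28 of 38 were above the batch median, against 11 of 56 and 10 of 38 JAG1-low cells. CD41, an early marker of hematopoietic commitment, differed less, with medians of 928.8 against 676.1 in GL53 and 913.6 against 696.6 in GL78. cKIT, the stem cell factor receptor, had medians of 687.9 in JAG1-high and 547.2 in JAG1-low cells of GL53, and 604.7 and 610.8 in GL78. The DLL4 and NOTCH2 signals lay around or below 0: 39 of 55 and 24 of 38 JAG1-high cells, and 41 of 56 and 29 of 38 JAG1-low cells, had a DLL4 value below 0. For NOTCH2 these were 35 and 30 JAG1-high cells, and 35 and 30 JAG1-low cells. No ratio was taken for these 2 signals. In GL78 the DLL4 signal was above the batch median in 60.5% of JAG1-high cells (43.4 to 75.96%) and 39.5% of JAG1-low cells (24.04 to 56.61%), with a rank correlation with JAG1 of 0.45, whereas in GL53 these were 47.3% and 51.8% with a rank correlation of 0.15. Within clusters 0, 1, 3 and 5 the DLL4 rank correlation was -0.14 in GL53 and 0.20 in GL78, and within cluster 2 it was 0.46 and 0.18. Over all cells of each batch the NOTCH2 rank correlations were 0.06 and 0.04.

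CD45, the protein of the Ptprc gene on hematopoietic cells, set a subset of JAG1-low cells apart. Its medians were alike, at 1041 in JAG1-high and 983.0 in JAG1-low cells of GL53 and at 1017 and 1075 in GL78. The highest JAG1-high cell reached 7634 in GL53 and 2694 in GL78, whereas JAG1-low cells reached 30405 and 34076. Of the JAG1-low cells, 12 in GL53 and 15 in GL78 were above every JAG1-high cell of their batch. Cells with the most CD45 were therefore found on the JAG1-low side in both batches.

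**Figure D2:**
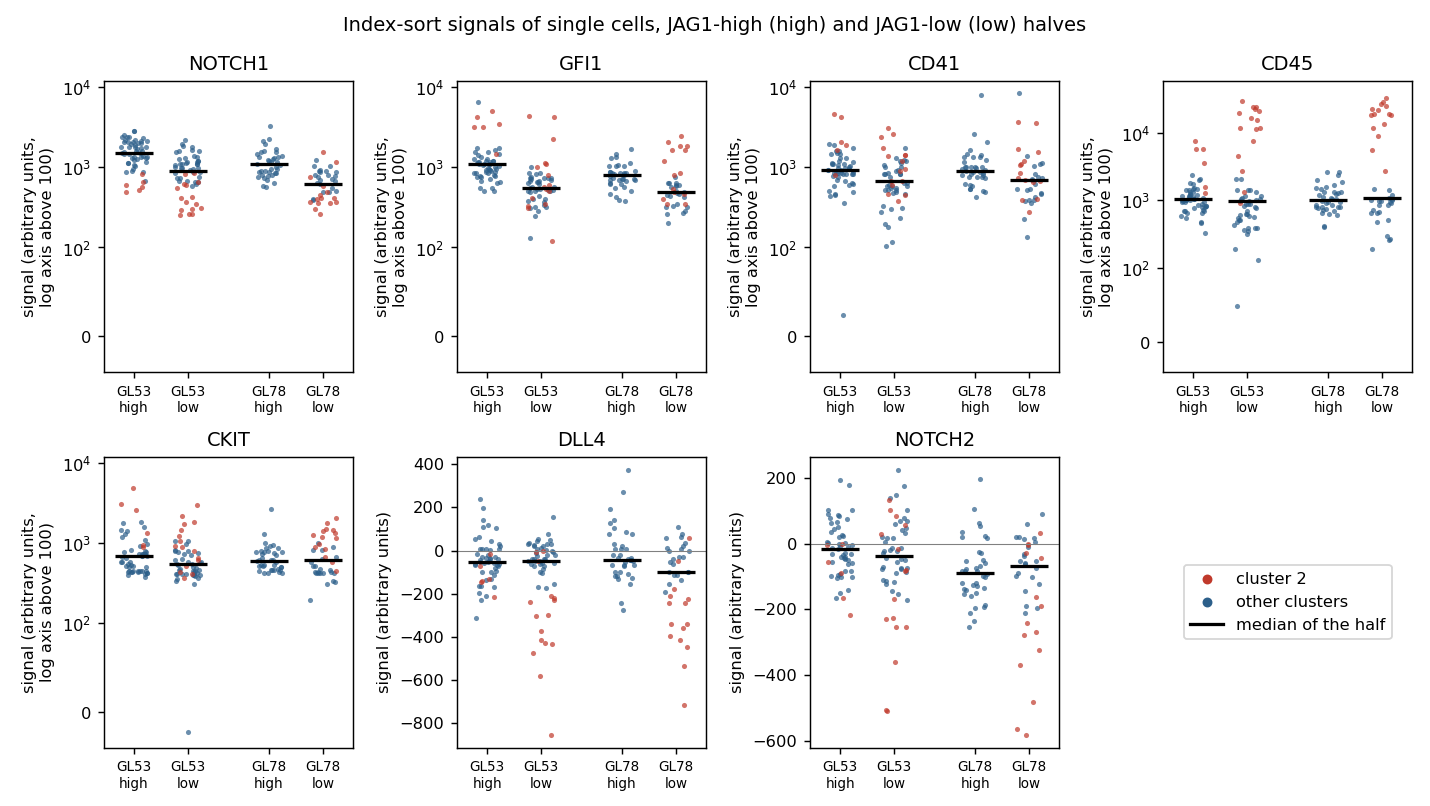
Index-sort signals of single cells (vertical axis, arbitrary units, log above 100, but linear for DLL4 and NOTCH2) in JAG1-high and JAG1-low cells of GL53 and GL78. Points are cells, red for cluster 2, and bars are medians. NOTCH1 and GFI1 medians were higher in JAG1-high cells of both batches, and every CD45 value above 7634 belonged to a JAG1-low cell.

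All of these CD45-rich cells belonged to cluster 2. Cluster 2 held 6 of 55 JAG1-high cells (10.9%, exact interval 4.11 to 22.2%) and 16 of 56 JAG1-low cells (28.6%, 17.3 to 42.2%) in GL53. In GL78 it held 0 of 38 JAG1-high cells (exact interval up to 9.25%; 3 of 38 cells would be 7.89%), and 15 of 38 JAG1-low cells (39.5%, 24.04 to 56.61%). In cluster 2 the median CD45 signal was 9619 in GL53 and 19093 in GL78, against 954.9 and 949.0 in clusters 0, 1, 3 and 5. Its median JAG1 signal was 4996 and 5305, against 11151 and 12858, and its median NOTCH1 signal 507.9 and 417.4, against 1344 and 892.1. Within clusters 0, 1, 3 and 5 JAG1 still went with CD31 (rank correlation 0.95 and 0.93, n = 88 and 61 cells), NOTCH1 (0.65 and 0.66) and GFI1 (0.86 and 0.81). It also went, less closely, with cKIT (0.34 and 0.47), CD41 (0.34 and 0.45) and CD45 (0.32 and 0.33) in these clusters. Within cluster 2 the correlation with CD31 was 0.79 in GL53 and 0.33 in GL78, and that with NOTCH1 was 0.05 in GL53 and -0.47 in GL78 (n = 22 and 15 cells). The other clusters were shared out as follows: cluster 0 held 20 and 26 JAG1-high cells against 20 and 15 JAG1-low cells in GL53 and GL78, cluster 1 held 12 and 8 against 8 and 1, cluster 3 held 9 and 4 against 10 and 5, and cluster 5 held 7 and 0 against 2 and 2. Cluster 4 held 1 JAG1-high cell in all.

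The RNA of cluster 2 carried the hematopoietic genes of the sorted population. Ptprc was read at 202.8 and 409.2 CPM (counts of a gene scaled to the same total in every group) in cluster 2 of GL53 and GL78, and at 0 counts in clusters 0, 1, 3 and 5 of both JAG1 groups, where 3 counts would be 0.0912 to 0.17 CPM. The same held for Gfi1, the gene behind the reporter, at 66.8 and 14.99 CPM in cluster 2 and 0 counts in the other 4 clusters. Runx1, a transcription factor needed for hematopoietic cells to form, stood at 185.3 and 112.2 CPM in cluster 2 and at 1.34 to 1.61 CPM elsewhere. Cells of clusters 0, 1, 3 and 5 thus passed the GFI1 reporter gate without Gfi1 reads, and carried Pecam1 at 768 to 1135 CPM and Kit at 63.7 to 132.1 CPM. Some comparisons of JAG1-high with JAG1-low RNA are for this reason also given without cluster 2. These come from 48 and 38 JAG1-high cells and 40 and 23 JAG1-low cells of GL53 and GL78. The 1 JAG1-high cell of cluster 4 was left out there as well. The ratios of many single genes are given only with cluster 2 included, and its part in them was not tested.

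More genes were lower than higher in JAG1-high cells. Of 9434 measured genes (10 CPM or more in the higher group of each batch), 46 were at least 2-fold higher in JAG1-high cells in both batches, 0.488% of those measured, 3.2% were at least 2-fold lower in both, and 9086 were neither. The median log2 ratio of all measured genes was -0.02. Ratios are log2 of CPM + 1 in JAG1-high over JAG1-low cells, which understates the change of low genes, and across genes those of the 2 batches had a Pearson correlation of 0.55. Of the lower genes, 23 had 0 counts in JAG1-high cells of both batches. A median of 92.9% of the JAG1-low reads of the lower genes came from cluster 2 cells in GL53, and 95.7% in GL78, against 29.2% and 34.4% over all measured genes. Without cluster 2, 52 genes were higher (0.573% of 9075 measured) and 32 lower (0.353%). Of these, 17 higher and 11 lower genes were among those called with cluster 2, and 73.2% of the genes called lower with cluster 2 were no longer measured. Fewer cells of a type and less RNA per cell cannot be told apart in such sums.

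**Figure D3:**
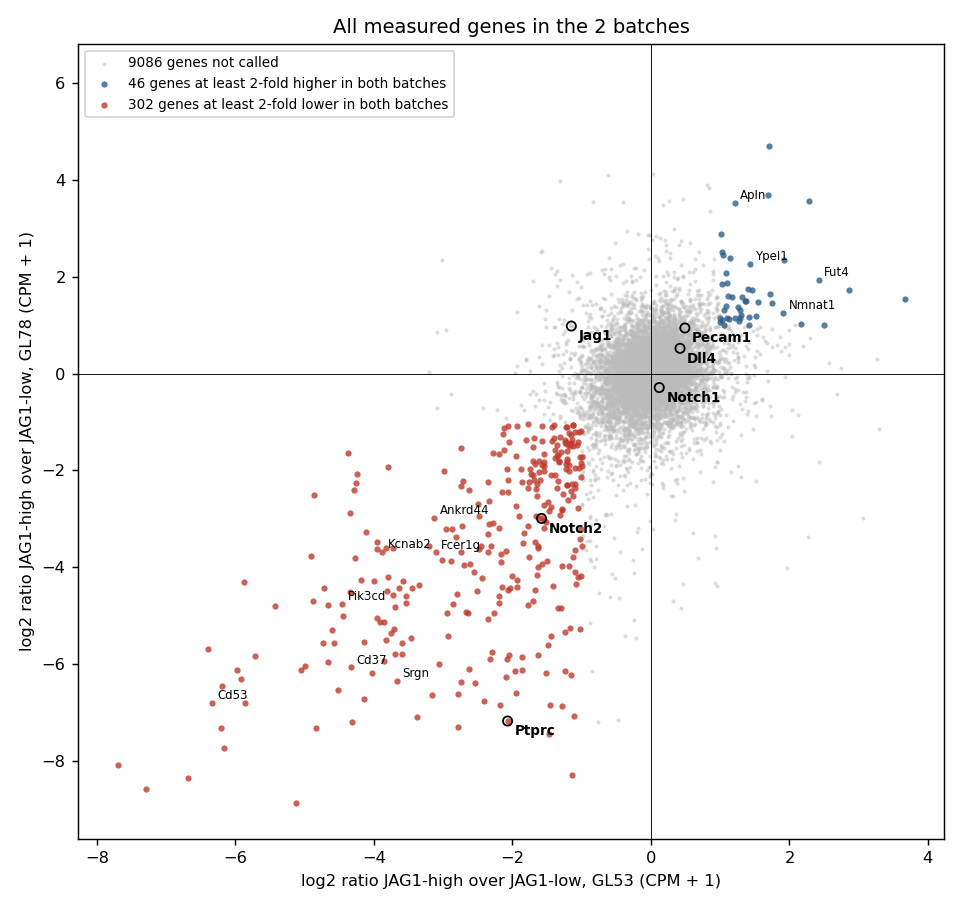
Log2 ratio of CPM + 1 in JAG1-high over JAG1-low cells for each measured gene, GL53 on the horizontal and GL78 on the vertical axis. Blue marks the 46 genes at least 2-fold higher in both batches, red the 3.2% at least 2-fold lower, and grey the 9086 genes not called. The red cloud reaches beyond -8, Notch2 and Ptprc lie in it, and Jag1 lies on opposite sides of 0 in the 2 batches.

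The 12 named genes that were higher in JAG1-high cells were led by Fut4, the fucosyltransferase that makes the Lewis X sugar epitope of the cell surface (chromosome 9, 14748320 to 14752393, minus strand). Fut4 stood at 16.2 CPM in JAG1-high cells of GL53 (exact Poisson interval 14.9 to 17.5) and 15.7 in GL78 (14.3 to 17.2), against 2.22 (1.76 to 2.75) and 3.36 (2.703 to 4.121) in JAG1-low cells, log2 ratios of 2.42 and 1.94. Single JAG1-high cells ranged up to 135.1 and 167.7 CPM around a median of 0, and single JAG1-low cells up to 70 and 80.6 CPM, so the groups overlapped at the level of cells. Fhl2, a LIM-domain adaptor protein, reached 54.4 and 67.2 CPM in JAG1-high cells, against 15.9 and 20.7 in JAG1-low cells. Its highest cell gave 47.8% of the JAG1-high reads in GL78.

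Apelin (Apln), a secreted ligand made by sprouting endothelium, had the largest mean ratio of the 12. It stood at 56.7 and 174.8 CPM in JAG1-high cells, against 23.9 and 14.3 in JAG1-low cells, log2 ratios of 1.21 and 3.52. In GL78, 1 cell gave 42.3% of the JAG1-high Apln reads. Apln had no read in cluster 2, and without that cluster its log2 ratios were 0.94 and 2.93, no longer past 2-fold in GL53. Hspa1b, an inducible Hsp70 chaperone, stood at 61.5 and 409 CPM against 23.2 and 144.2, a difference between the batches larger than that between the JAG1 groups.

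Of the other named genes, Slc11a2 imports iron into cells and Nmnat1 makes NAD in the nucleus. Slc11a2 stood at 27.9 and 38.1 CPM in JAG1-high cells of GL53 and GL78, against 10.3 and 12.9 in JAG1-low cells. Nmnat1 stood at 27.7 and 28.6 CPM against 6.65 and 11.4. Dirc2, a lysosomal membrane transporter, had log2 ratios of 1.75 and 1.45, and Myo1e, a motor protein of the cell cortex, 1.30 and 1.21. Tril, a partner of Toll-like receptors, had 1.32 and 1.58, Ypel1 1.43 and 2.26, the zinc finger gene Zfp846 1.28 and 1.31, and Fam167b 1.26 and 1.38. Without cluster 2, 9 of the 12 were still at least 2-fold higher in both batches, and Fam167b, Apln and Myo1e were not.

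The promoters of the named higher genes are shown where they hold the letters bound by RBPJ, the nuclear partner of Notch. The 300-base window around the start of each gene (RefSeq, GRCm38.p6) was searched for TGGGAA on both strands, and these letters hold the GGAA core that ETS motifs share. Of the 12 genes 10 had a window and 4 held the letters, given below as 30 bases read on the strand of the gene with the match in capitals.
Fhl2 (chr1:43196877-43196906, minus strand, match on the opposite strand): catagcagccccTTCCCAactggagcctat
Tril (chr6:53820807-53820836, minus strand): gggggcagagtgTGGGAAgaacgaatttcc
Zfp846 (chr9:20581183-20581212, plus strand): ccatgtgggtacTGGGAAtccagcctgggt
Fam167b (chr4:129578662-129578691, minus strand): caacttcctttcTGGGAAccaggaacctga
The letters stood in 13 of the 30 windows found for the 46 higher genes (43.3%), in 55 of 220 windows of lower genes (25%), in 22.3% of 7435 windows of measured genes and in 25.5% of all 27025 windows. They were in no window of Jag1, Notch1, Notch2, Dll4 or Ptprc. The ETS letters CCGGAA were in 4 of 30 higher (13.3%) and 36 of 220 lower windows (16.4%), against 31.7% of measured genes, and the RUNX letters TGTGGT in 16.7% and 18.6%, against 11.8%. The GATA letters AGATAA were in 6.67% of higher and 11.4% of lower windows, against 5.72% of measured genes, and the E-box letters CAGCTG in 23.3% and 14.1%, against 13.9%. These are matches of letters and not binding sites.

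The 12 named genes that were lower in JAG1-high cells were led by genes of white blood cells. Cd53, a leukocyte tetraspanin (chromosome 3, 106759921 to 106790149, minus strand), had 1 count in JAG1-high cells of GL53 against 3085 in JAG1-low cells, a ratio of 3097 with an interval of 555.4 to 122350. In GL78 it had 0 counts in JAG1-high cells against 110.8 CPM in JAG1-low cells, at least 1146-fold lower when the group without counts is set to 3. In cluster 2, 13 of 22 and 15 of 15 cells held Cd53 reads. Rac2, a small GTPase of hematopoietic cells, stood at 22.4 and 5.22 CPM in JAG1-high cells, against 335.2 and 377.9 in JAG1-low cells, and all of its JAG1-low reads came from cluster 2. Its GL78 reads in JAG1-high cells came from 1 cell.

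Srgn, the core protein of secretory granules, stood at 16.4 and 1.19 CPM in JAG1-high cells, against 220.2 and 177.2 in JAG1-low cells. Lsp1, a leukocyte actin-binding protein, stood at 24.8 and 16.1 CPM against 298.5 and 456.3, and was the only one of the 12 still measured without cluster 2, at 24.9 and 16.1 CPM in JAG1-high against 22.5 and 10.3 in JAG1-low cells. Pik3cd, the leukocyte PI3-kinase subunit, had log2 ratios of -4.46 and -4.75, the tetraspanin gene Cd37 -4.33 and -6.06, the GTPase regulator Arhgap9 -3.70 and -5.78, and the potassium channel subunit Kcnab2 -3.88 and -3.68. Psd4, an exchange factor of ARF GTPases, had -3.59 and -5.78, the Fc receptor chain Fcer1g -3.11 and -3.69, Ankrd44 -3.13 and -2.98, and Parvg, a hematopoietic parvin of integrin adhesions, -2.81 and -3.37. Arhgap9 and Psd4 had 0 counts in JAG1-high cells of GL78, at least 558-fold and 557-fold lower, and Kcnab2 had 1 count in GL53, a ratio of 529 with an interval of 94.5 to 20933. None of the 12 was called without cluster 2.

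**Figure D4:**
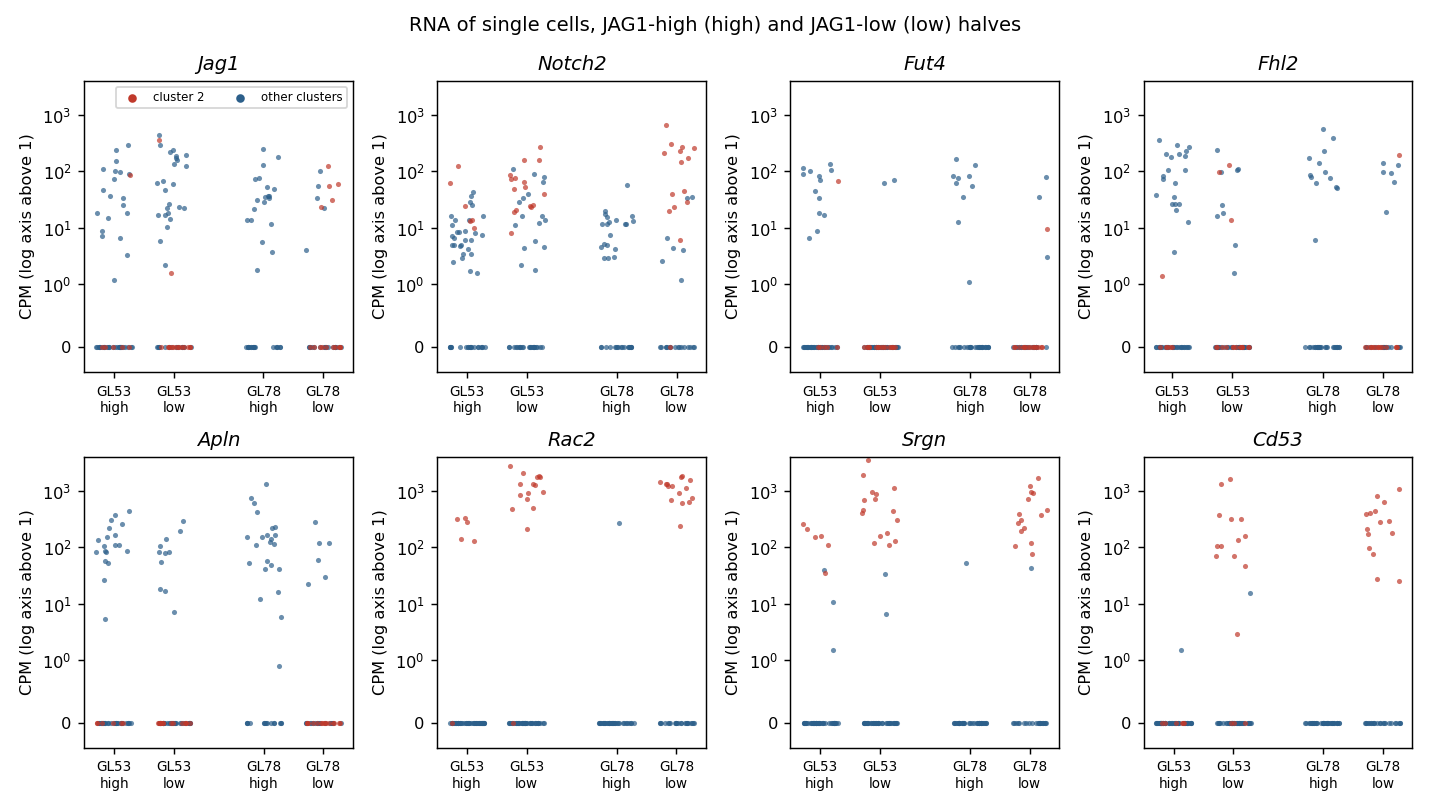
CPM in each cell (vertical axis, log above 1) for 8 genes in JAG1-high and JAG1-low cells of GL53 and GL78, red for cluster 2 cells and blue for the others. Rac2, Srgn and Cd53 reads lie almost entirely in cluster 2 cells, Fut4, Fhl2 and Apln reads mostly in other cells, and Jag1 reads are spread over both JAG1 groups.

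Jag1 RNA was higher in JAG1-high cells in GL78 but lower in GL53. In GL53 Jag1 (chromosome 2, 137081456 to 137116644, minus strand) stood at 21.4 CPM in JAG1-high cells (19.98 to 22.97), against 48.8 in JAG1-low cells (46.6 to 51.1). In GL78 it stood at 25.2 CPM (23.47 to 27.04), against 12.3 (11.03 to 13.72). The log2 ratios of -1.15 and 0.98 had opposite signs and a mean of -0.09. Single JAG1-high cells reached 296.4 and 254.4 CPM around medians of 0 and 2.71, and single JAG1-low cells reached 434.2 and 124.7 CPM around medians of 0. Across cells the rank correlation between Jag1 RNA and JAG1 signal was -0.05 in GL53 and 0.23 in GL78. Without cluster 2 the signs were opposite too, at -1.79 and 1.46.

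Of the other ligands, Dll4 stood at 71 and 82.5 CPM in JAG1-high cells, against 52.96 and 57.1 in JAG1-low cells (log2 0.42 and 0.52). Without cluster 2, where Dll4 was at 11.6 and 0 CPM, the ratios were 0.05 and -0.09. Dll1 had log2 ratios of -0.21 and 0.43 and Jag2 of 0.12 and -0.22. None of the 4 measured ligands was called, and their median was 0.03. Dll3, Dlk1, Dlk2 and Dner were below the measured level.

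Among the receptors, only Notch2 was called. Notch2 (chromosome 3, 98013527 to 98150361, plus strand) stood at 9.09 CPM in JAG1-high cells of GL53 (8.16 to 10.1) and 6.29 in GL78 (5.44 to 7.23), against 29.1 (27.4 to 30.9) and 56.99 (54.18 to 59.91) in JAG1-low cells. Cluster 2 cells gave 66.2% and 96.6% of the JAG1-low reads. Without them Notch2 was below the measured level, with log2 ratios of -1.15 and 0.88. Notch1, the gene of the receptor whose protein was higher on JAG1-high cells, stood at 112.1 and 147.1 CPM in JAG1-high cells, against 103.4 and 179.8 in JAG1-low cells (log2 0.12 and -0.29), and at -0.09 and 0.02 without cluster 2. The NOTCH1 signal and Notch1 RNA thus differed in whether they separated the groups. Notch4, the endothelial receptor, had log2 ratios of 0.19 and 0.86, and Notch3 of -0.47 and 0.54. The 4 receptors had a median of -0.03.

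Of the 6 measured Notch targets, 1 was called lower, against 3.2% of all measured genes. Their median was -0.71 (-0.57 in GL53 and -0.20 in GL78), but it was 0.04 without the highest cell of each gene, 0.0 with no filter on low values, -0.14 with thinned cells and 0.14 for the 5 measured without cluster 2. That gene was Runx1, at 22.9 and 1.61 CPM in JAG1-high cells against 53.2 and 40.1 in JAG1-low cells, with 98.2% and 97.7% of its JAG1-low reads from cluster 2. Hes1 stood at 104.7 and 118.7 CPM against 101.7 and 116.8, and Hey1 at 50.6 and 24.7 against 24.8 and 18.6 (log2 1.00 and 0.39, short of 2-fold in GL78). In GL53, 33.9% of the JAG1-high Hey1 reads came from 1 cell. Gata2, a hematopoietic transcription factor, had log2 ratios of -0.84 and -2.04, Myc of -0.29 and 0.80, and Dtx1 of -2.89 and -0.43, with reads in 1 and 3 JAG1-high and 4 and 1 JAG1-low cells. Hes5, Hes7, Hey2, Heyl, Nrarp and Il2ra were below the measured level.

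Of the 7 measured genes that cut Notch, 2 were called lower, against 3.2% of all measured genes, Psen2, a catalytic subunit of gamma-secretase, and Furin, which cuts the receptor before it reaches the surface. Psen2 stood at 24.9 and 9.74 CPM in JAG1-high cells, against 50.8 and 125.6 in JAG1-low cells, and Furin at 14.8 and 11.4 against 31.5 and 46.6. Their GL53 log2 ratios lay at the 2-fold limit (-1.04 for Furin), and were -0.59 for Psen2 and -0.83 for Furin with equal weight per cell and without the highest cell. In GL53, 35.4% of the JAG1-low Psen2 reads came from 1 cell. Without cluster 2 Psen2 had log2 ratios of 0.35 and -1.34, and Furin of -0.54 and -0.17. The proteases Adam17 and Adam10 had log2 ratios of -0.52 and -1.02, and of -0.24 and -0.36, and without cluster 2 of -0.65 and -0.89, and of -0.51 and -0.60. Ncstn and Psenen had log2 ratios between -0.47 and 0.42 in each batch, and Aph1a, Aph1b and Aph1c were below the measured level. The list's median was -0.32 (-0.28 for 8 measured genes without cluster 2).

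None of the 6 measured fringe and glycosylation genes was called. Mfng, a fringe enzyme, stood at 265.7 and 336.2 CPM in JAG1-high cells, against 217.6 and 223.8 in JAG1-low cells (log2 0.29 and 0.58). Rfng had log2 ratios of -0.78 and 0.48. Pofut1, Poglut1, Gxylt1 and Xxylt1 had log2 ratios between -0.43 and 0.30, and Lfng was below the measured level. Of the 13 measured nuclear partners and regulators none was called, with a median of -0.26: Rbpj had log2 ratios of -1.10 and 0.02, Maml1 of -0.57 and 0.76, Maml2 of 0.45 and -0.61, and Maml3 of -0.55 and -0.85. Spen, Kdm5a, Hdac1, Fbxw7, Numb, Itch, Dtx2 and Dtx3 had log2 ratios between -0.68 and 0.21, and Numbl, Dtx4 and Nrarp were below the measured level. Of the 12 measured genes for ligand endocytosis, by which the signal-sending cell pulls on the receptor, none was called (median 0.10). Epn2, an epsin, had log2 ratios of 0.08 and 1.30, and Mib2, a ligase that tags ligands, of 0.20 and 1.08.

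The RNA of the other sort markers went with cluster 2 in part. Ptprc, the gene of CD45, stood at 14.6 CPM in JAG1-high cells of GL53, against 64.6 in JAG1-low cells, and at 0 counts against 143.01 CPM in GL78, at least 1479-fold lower. Pecam1, the gene of CD31, stood at 1062 and 1029 CPM against 755 and 537 (log2 0.49 and 0.94), and at 0.30 and 0.42 without cluster 2, short of 2-fold in each case although the CD31 signal split the groups almost fully. Kit had log2 ratios of -0.01 and -2.25, Itga2b, the gene of CD41, of -0.14 and -1.05, and Procr of 0.40 and 0.23. Gfi1 and Ly6a were below the measured level.

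Most hematopoietic surface genes, and a smaller part of the hematopoietic transcription factors and HSC-associated genes, were lower in JAG1-high cells. Of 25 measured hematopoietic surface and signalling genes 18 were called lower and 0 higher, against 3.2% and 0.488% of all measured genes, with a median log2 ratio of -2.90. Itgb7, an integrin chain, stood at 1.25 CPM and 0 counts in JAG1-high cells, against 38.8 and 103.9 CPM in JAG1-low cells (at least 1075-fold lower in GL78), and Tyrobp, an adaptor of myeloid receptors, at 6.28 and 1.42 against 165.9 and 223.4. Cd34, which endothelium also expresses, stood at 764 and 519 against 741 and 458, and Cd93 at 902 and 598 against 604 and 385. Without cluster 2 the 8 members still measured had a median of 0.25 and 0 were called.

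Of 17 measured hematopoietic transcription factors 4 were lower, against 3.2% of all measured genes. These were Runx1, Spi1, Ikzf1 and Nfe2. The list median was -1.44 (-0.26 in GL53 and -2.04 in GL78), and 0.01 for 11 without cluster 2. Ikzf1, a factor of lymphoid and stem cells, stood at 14.3 CPM and 0 counts in JAG1-high cells, against 105.4 and 155.6 CPM (at least 1609-fold lower in GL78), and Fli1, which endothelium shares, at 164.7 and 200.7 against 180.1 and 130.95. Of 19 HSC-associated genes 3 were lower, again against 3.2%, among them Cd27 and Angpt1. The list median was 0.24 (0.40 in GL53 and -0.09 in GL78), and 0.20 for 14 without cluster 2. The list summed to 3248 and 2557 CPM in JAG1-high cells against 2563 and 2066 in JAG1-low cells. Mllt3 and Trim47 of the same list had log2 ratios of 1.49 and -0.02, and of 1.02 and 0.49.

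Fewer markers of single blood lineages were measured, and not all of their reads came from cluster 2. Their counts of lower genes stand against 3.2% of all measured genes. Of 7 myeloid progenitor genes Mpo, Prtn3 and Spi1 were lower (median -1.88), and Mpo, the granule peroxidase, stood at 14.2 and 5.45 CPM in JAG1-high cells, against 263.9 and 60.8 in JAG1-low cells. Both Cpa3 and Hdc of the 3 measured mast and basophil genes were lower (median -7.00). Cpa3, a mast cell protease, had 0 counts in JAG1-high cells of both batches against 206.8 and 270.3 CPM, at least 2593-fold and 2795-fold lower, from 5 and 8 JAG1-low cells. Cx3cr1 of 3 macrophage genes and Ltb and Flt3 of 4 lymphoid genes (median -1.32) were lower too. So were 2 of 7 megakaryocyte genes, among them Gp1bb (median -0.97, with -0.14 in GL53 and -2.43 in GL78). The summed megakaryocyte genes lay on opposite sides in the batches, at 601.8 and 310.4 CPM in JAG1-high cells against 437.6 and 713 in JAG1-low cells, and 1 cell gave 59.4% of the GL78 JAG1-low reads. Without cluster 2 the median of the 5 members still measured was -0.53, and Pf4, a platelet chemokine, was lower, at 12.4 and 14.7 CPM in JAG1-high cells against 28.7 and 265.1 in JAG1-low cells, whereas cluster 2 itself held 1.09 and 0 CPM of it. In the macrophage list 5 of 12 genes were at 0 in JAG1-high cells of each batch, and the summed level was 82.2 and 40.7 CPM in JAG1-high cells against 123.3 and 135.4 in JAG1-low cells. Erythroid genes summed to 41.4 and 31.9 CPM against 206.8 and 32.2, and 53.5% of the GL53 JAG1-low reads came from 1 cell. The embryonic globin gene Hbb-y had 0 counts in cluster 2 and up to 143.4 CPM outside it. Germ cell genes summed to 245.1 and 94.2 CPM against 220.5 and 398.2, and mesenchyme genes to 29.1 and 31.4 against 31.9 and 27.04. The part of other cell types in the results was not tested. Putting genes with 0 counts at their bound left every list median as it was.

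Endothelial genes lay on the JAG1-high side, without a called member, and their difference went with cluster 2. The 22 general endothelial genes had a median log2 ratio of 0.48 (0.30 in GL53 and 0.73 in GL78). The 11 arterial genes had 0.47 (0.44 and 0.39) and the 12 venous and lymphatic genes 0.50 (0.08 and 0.91), against -0.02 over all measured genes. Without cluster 2 these medians were 0.04, -0.04 and 0.05. Cdh5, VE-cadherin, stood at 1089 and 776 CPM in JAG1-high cells, against 801.5 and 356.4 in JAG1-low cells, with 1.5% and 0% of the JAG1-low reads from cluster 2. Sox18 stood at 630 and 621 CPM against 422.6 and 330.8, and Tek, the angiopoietin receptor, at 426.2 and 350.5 against 404.1 and 305.02. Unc5b, a guidance receptor of arteries, stood at 55.9 and 36.5 against 12.5 and 17.8 (log2 2.08 and 1.00, just short of 2-fold in GL78). The general endothelial genes summed to 15735 and 15685 CPM in JAG1-high cells, against 12648 and 9504 in JAG1-low cells, and the lowest single cell held 4622 and 8971 against 110.9 and 0 CPM.

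**Figure D5:**
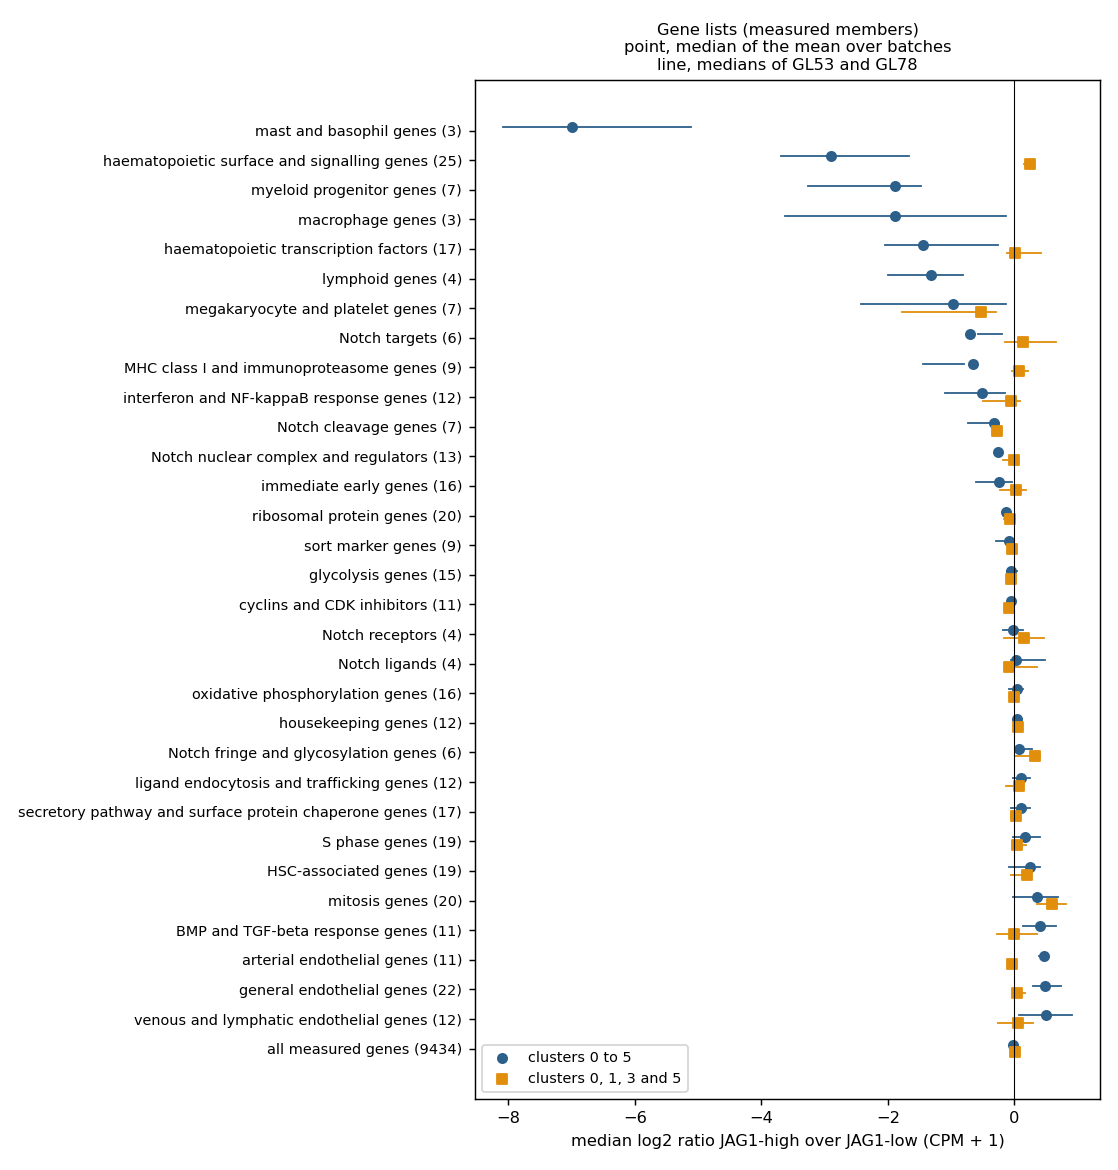
Median log2 ratio of CPM + 1 in JAG1-high over JAG1-low cells for each gene list (horizontal axis), in all cells (blue) and without cluster 2 (orange, where 3 or more members were measured), with the number of members measured in all cells in brackets. Lines join the medians of GL53 and GL78. The hematopoietic surface genes and transcription factors lie left of 0 in blue and at 0.25 and 0.01 in orange, the HSC-associated genes lie at 0.24 in blue, the megakaryocyte genes stay left of 0 in orange (-0.53), and the endothelial lists move from about 0.5 to near 0 without cluster 2.

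A few mitosis genes were higher in JAG1-high cells once cluster 2 was left out. With all cells 0 of 20 were called and the median was 0.35 (0.69 in GL53 and -0.02 in GL78). Without cluster 2, 4 of 20 were at least 2-fold higher in both batches, against 0.573% of all measured genes, and the median of all 20 was 0.59 (0.81 in GL53 and 0.36 in GL78). Cdk1, the kinase that drives entry into mitosis, then stood at 505 and 290.6 CPM in JAG1-high cells of GL53 and GL78, against 189.1 and 107.7 in JAG1-low cells. Ube2c, which marks cyclins for destruction, stood at 353.7 and 232.5 against 125.98 and 83.02, the proliferation marker Mki67 at 340.4 and 225.3 against 149.5 and 104.6, and the kinase Aurkb at 151.2 and 91.8 against 61.5 and 45.3. The authors' phase calls put 39.6% of JAG1-high cells of GL53 (25.8 to 54.7%) and 42.1% of GL78 (26.3 to 59.2%) in G2M, against 22.5% (10.8 to 38.5%) and 30.4% (13.2 to 52.9%) of JAG1-low cells, and these intervals overlap. With cluster 2 the shares were 43.6% and 42.1% against 23.2% and 36.8%. Among G1 cells alone, with cluster 2 included, the median of the mitosis list was -0.29, against 0.35 for cells of all phases. S phase genes had a median of 0.17 and 0 of 19 called, and of 11 cyclins and their inhibitors the inhibitor Cdkn1a was lower, at 22.7 and 16.96 CPM against 72.5 and 217.5, with 97.1% and 94.03% of the JAG1-low reads from cluster 2.

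The remaining lists differed little or followed cluster 2. Their counts of lower genes also stand against 3.2% of all measured genes. The immunoproteasome genes Psmb8 and Psmb9 of 9 MHC class I genes (median -0.66; 0.08 for 5 without cluster 2) and Nfkbiz, Tnfaip3, Birc3 and Ifitm1 of 12 interferon and NF-kappaB response genes (median -0.52; -0.05 for 11) were lower. Tnfaip3, a brake on NF-kappaB, stood at 21.99 and 14.1 CPM in JAG1-high cells, against 103.7 and 360.2 in JAG1-low cells. Of 16 immediate early genes, which dissociation of tissue can induce, Egr1 was lower (median -0.25; 0.03 without cluster 2). No member was called in the BMP and TGF-beta response list (median 0.40; -0.01 without cluster 2), nor among the glycolysis (-0.06), oxidative phosphorylation (0.04), ribosomal protein (-0.13), secretory pathway (0.11) and housekeeping genes (0.04).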

How the data were processed

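The authors index sorted single AGM cells and made 1 paired-end Smart-Seq2 library per cell, without molecular identifiers. Per the submitters' processing notes, reads were aligned with STAR 2.7.3 (mm10) and summed per gene by HTSeq 0.9.1, and the authors deposited these counts raw. The notes also name Scanpy 1.4.4. The sources used here do not give strand and duplicate settings. The fluorescence intensity of 9 signals, the fraction of mitochondrial counts (printed as a percent), the Louvain clusters and the cell cycle phases were taken from the annotation deposited by the authors (5 of its 22 columns were not used). The deposited normalized natural log table was not used here.

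Counts of the JAG1-high and the JAG1-low cells were summed within each batch and scaled to CPM over 46078 genes (92 spike-in rows held 0 counts), of which 45143 matched a symbol. Log2 ratios with a pseudocount of 1 CPM were taken within GL53 and GL78 and averaged with equal weight. A gene was measured at 10 CPM or more in the higher group of each batch and called at 2-fold or more in the same direction in both batches. The study's cell-level rank test was not used, since cells are not replicates. Named genes were measured, had reads in at least 25% of the cells of the higher group in each batch, kept their direction with equal weight per cell and without the highest cell, and were the first 12 per direction by their smaller batch ratio, unnamed predicted genes passed over. Genes of the Notch lists and of the sort markers were named whatever their values, and examples of other lists were the members with the highest and lowest ratios. The 34 lists (454 symbols, 1 not found) came from general knowledge, and genes can be in several. The members, lists and rules were chosen with earlier results of these data known. Intervals are exact (Poisson for CPM, Clopper-Pearson for shares, 95%). A fold against a group at 0 counts used 3 counts for that group in its batch. No doublet caller was run. The procedure was tested on simulated data with set fold changes. The simulated cells otherwise shared the same mean profile, so a difference in clusters between the groups was not simulated. Python 3.11.15, numpy 2.4.6, pandas 2.3.3 and scipy 1.17.1 were used. A few genes that the lists count are not reported here by name.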

Additional observations from a re-analysis of the deposited data

Results flagged for a closer look

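Cells of the E10.5 GFI1+ IAHC sort of batch GL78 were split by their own JAG1 median in the same way (40 JAG1-high and 41 JAG1-low cells). Of the genes named above that were also measured at E10.5, 6 had a log2 ratio of the opposite sign to both E11.5 batches. Ankrd44 (0.17 at E10.5) and Zfp846 (-0.11) had the opposite sign too, but were below the measured level at E10.5. The differences between stages were not tested, and in GL78 the stages lay on different sort plates. Ypel1 had 1.43 and 2.26 in GL53 and GL78 at E11.5, against -0.08 at E10.5. Poglut1 had 0.29 and 0.25 in the E11.5 batches, against -0.10 in E10.5 cells. Among the proteases, Adam10 had -0.24 and -0.36 in the E11.5 batches, against 0.07 in E10.5 cells, and Adam17 had -0.52 and -1.02, against 0.06. Maml3 had -0.55 and -0.85 in the E11.5 batches, against 0.53 in E10.5 cells, and Dtx3 had -0.20 and -0.68, against 0.20. Of the 6, only Ypel1 was past 2-fold in both batches at E11.5, and none was at E10.5. Apart from Maml3, their E10.5 ratios lay between -0.10 and 0.20, close to no difference. The share of such sign changes over all measured genes is not given here, so the count of 6 has nothing to stand against.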

How the results depend on the processing

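Of 429 list medians under the alternatives, 75 moved by more than the SD between the 2 batches and 55 had the other sign. Of 966 values of named genes 746 stayed within that SD, and 13 values of called genes changed sign. Jag1 RNA, -0.09 on average, lay between -1.15 and 0.98 in every setting but 1, and the NOTCH1 difference, 46.7 points, was 45.9 in GL53 and 47.4 in GL78. Batches GL53 and GL78 each held 1 summed sample per group, so a value of 1 batch alone has no spread. The cause of the shifts below was not tested, except where a setting only widens the rule or removes cells. No paired analysis was possible because the values come from no test and the labels name no animal, beyond that each ratio was taken between groups of the same batch. Cluster 2 by the batch median (6 JAG1-high and 16 JAG1-low cells in GL53, 0 and 15 in GL78) gave no value in both batches.

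The main shares were 0.488% of measured genes higher (46 genes) and 3.2% lower. With a pseudocount of 5 CPM 0.212% were higher (20 genes), and the medians were -0.44 for Notch targets and -0.23 for nuclear regulators. Over all 46078 genes with no filter, 0.401% were higher and 1.51% lower (694 genes), with medians of 0.0 for Notch targets, 0.27 for fringe, -0.10 for nuclear regulators, -0.60 for sort markers, -0.20 for HSC-associated and -1.55 for mast cell genes. At 1.5-fold, 2.41% were higher and 5.99% lower. With median-of-ratios scaling nuclear regulators had -0.23 and arterial genes 0.51, and with equal weight per cell -0.30 and 0.35, and lymphoid genes -2.56. With cells thinned to 50000 counts 0.801% were higher (76 genes), with -0.14 for Notch targets, -0.31 for nuclear regulators, -2.55 for lymphoid genes and -0.12 for cyclins. With the highest cell left out 0.917% were higher (81 genes), with 0.04 for Notch targets, -0.15 for nuclear regulators, 0.60 for arterial genes, -3.95 for myeloid genes and 0.08 for cyclins.

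The highest against the lowest tertile of JAG1 gave 1.74% higher and 5.35% lower genes, -0.15 for fringe, -0.50 for sort markers, 0.60 for arterial, -3.98 for myeloid and -2.82 for lymphoid genes, 0.06 for cyclins, -1.30 for MHC class I and a NOTCH1 difference of 59.5 points. G1 cells alone gave 1.03% higher genes, 0.28 for fringe, -0.22 for nuclear regulators, -0.84 for sort markers, 0.18 for arterial genes, -0.29 for mitosis, -0.09 for cyclins, -0.05 for ribosomal proteins and 49.8 points for NOTCH1. GL53 alone gave 2.81% higher and 6.02% lower genes and -0.20 for nuclear regulators. GL78 alone gave 6.39% higher and 11.2% lower genes, 0.48 for ligands, -0.20 for targets, 0.27 for fringe, -0.24 for nuclear regulators, -0.29 for sort markers, 0.39 for arterial, -3.26 for myeloid, -2.86 for megakaryocyte, -3.78 for lymphoid and -3.93 for mast cell genes, -0.08 for cyclins and -1.33 for MHC class I.

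Without cluster 2, 0.353% of genes were lower (32 genes), and medians were 0.14 for Notch targets, 0.33 for fringe, -0.01 for nuclear regulators, 0.01 for hematopoietic transcription factors, 0.25 for hematopoietic surface genes, 0.04 for endothelial, -0.04 for arterial and 0.08 for MHC class I genes, -0.01 for BMP and -0.07 for ribosomal proteins. The sign turned for Cd37 (0.23), Rac2 (1.32), Kcnab2 (0.50), Lsp1 (0.37), Fcer1g (0.30), Parvg (1.12) and Runx1 (0.08), of which only Lsp1 was still above 10 CPM. Splitting cluster 2 and the other cells each by its own median gave 0.661% lower genes (62 genes), 0.29 for receptors, 0.10 for targets, -0.10 for nuclear regulators, 0.33 for sort markers, 0.13 for hematopoietic factors, -0.07 for hematopoietic surface genes, 0.04 for endothelial, 0.06 for arterial, -0.14 for venous, -0.30 for myeloid, 1.52 for macrophage, 0.67 for megakaryocyte, -0.43 for lymphoid and 3.97 for mast cell genes, 0.06 for cyclins, 0.24 for interferon genes and 30.2 points for NOTCH1. There the sign turned for Cd53 (0.36), Kcnab2 (0.51), Srgn (0.51), Notch2 (0.66), Psen2 (1.30) and Furin (0.59). The next 3 settings were chosen after seeing the data. The JAG1 residual on CD31 gave 0.972% higher (91 genes) and 0.481% lower genes (45 genes), of which 3 and 16 were among those called by the batch median, and 28.8 points for NOTCH1 and a share of cluster 2 cells 3.3 points higher in JAG1-high cells, against -28.6 points with the batch median. Cluster 2 alone by its own median (11 and 7 JAG1-high, 11 and 8 JAG1-low cells) gave 6.35% higher genes (565 genes), 3.88 for Jag1 RNA and -34.9 points for NOTCH1. Without the cells of the second GL53 plate NOTCH1 differed by 44.3 points.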

Other observations

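At E10.5 the same split of GFI1+ IAHC cells of GL78 gave values of 1 batch with no replicate. Some Notch pathway genes were higher in JAG1-high than in JAG1-low cells, and others were lower. Dll4 stood at 135.3 CPM in JAG1-high cells against 29.3 in JAG1-low cells, Hey1 at 80.6 against 17.2, Notch4 at 66.1 against 19.1, Hes1 at 70.5 against 30.8 and Notch1 at 136.3 against 86.7. Jag1 stood at 22.35 CPM against 10.8, and Notch2 at 7.56 against 18.98. Dll1 was lower too, at 10.6 CPM against 18.5, and Fbxw7 at 8.64 against 22.6. Rbpj, Myc, Psenen and Runx1 had log2 ratios between -0.58 and -0.45. The median NOTCH1 signal was 974.5 against 516.7. Cluster 2 held 12 of 40 JAG1-high cells (30%) and 24 of 41 JAG1-low cells (58.5%), and the median log2 ratio was -1.33 for the hematopoietic surface and signalling genes and 0.66 for the general endothelial genes. The part of cluster 2 in these values was not tested.

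Genes called without cluster 2 that had not been called with it included Nphp4, at 0.972 CPM and 1 count (0.0322 CPM) in JAG1-high cells against 11.8 and 12.1 in JAG1-low cells, and Gsn, the actin-severing protein gelsolin, at 6.99 and 8.09 against 28.4 and 46.1. Among those called both with and without it, Hfe, a regulator of iron uptake, stood at 30.7 and 22.02 CPM without cluster 2 against 3.84 CPM and 0 counts, and Ephb1, an ephrin receptor, at 14.04 and 13.4 against 2.43 and 0.34. Lpar1, a receptor for lysophosphatidic acid, stood at 13.7 and 6.25 against 33.8 and 16.3. These genes were chosen after their values were seen.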
